A study of Homo sapiens with 12 samples.

Results

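The 8 control libraries of this RNA-seq study of human embryonic stem cells, grown in a naive-type medium, separated by their replicate number. The contrast described here is between 4 libraries numbered 3 and 4 and 4 libraries numbered 1 and 2. The 8 belong to 2 control groups, ASO-Ctr (non-targeting antisense oligonucleotides) and SO-L1 (sense oligonucleotides to LINE1), and no L1 antisense oligonucleotide was given. They are 8 of the 12 libraries of the series. The other 4, ASO-L1 (antisense oligonucleotides to LINE1, the most abundant active transposon family of the human genome), carry the same numbers and were used only to look at the contrast again. The split was chosen on measured values, because it was seen on the leading principal components of all 12 libraries. The counts of genes in the control contrast are therefore a description and not a test.

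All cells were H9, an established human embryonic stem cell line, grown in RSeT medium, which supports a naive-like state. Every culture, controls included, received 25 nM oligonucleotide by lipid transfection, then 10 nM DZNep (an inhibitor of S-adenosylhomocysteine hydrolase that lowers histone methylation) and 5 nM TSA (trichostatin A, a histone deacetylase inhibitor). Trans-ISRIB, emricasan and the ROCK inhibitor Y-27632 were present for the first 24 h, and unsorted cells were taken at 48 h. The labels do not say what the cultures of 1 number shared (a thaw, a passage, a plate, a library preparation or a sequencing run). Differences in cell state and differences in handling cannot be told apart in this contrast, and p-values measure only the spread between these libraries, which may be technical. All cells come from 1 line, and in bulk RNA fewer cells of a type and less RNA per cell cannot be told apart.

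The control libraries held 20367989 to 29451385 assigned reads in numbers 1 and 2 and 23430960 to 29383229 in numbers 3 and 4, so that 3 counts, the limit allowed by a count of 0, came to between 0.102 and 0.147 CPM (reads of a gene scaled to a common library size). That limit covers counting error only. The first principal component of the 8 libraries held 70.5% of the variance and set numbers 3 and 4 apart from numbers 1 and 2, and the second held 7.93%. Mitochondrially encoded RNA made up 4.74 to 8.08% of reads in numbers 1 and 2, lowest in ASO-Ctr 2, and 7.61 to 7.93% in numbers 3 and 4. Its part in the other differences was not tested, but those without ASO-Ctr 2 are given with the dependence on the processing. The defining genes of pluripotent cells were present throughout. POU5F1 ran at 1096, 1048, 1153 and 1084 CPM in ASO-Ctr 1, SO-L1 1, ASO-Ctr 2 and SO-L1 2, and at 1036, 1053, 1071 and 1035 CPM in the same groups of numbers 3 and 4. This order of the 4 libraries of a set is kept for all values. SOX2 ran at 401, 395, 427 and 422 CPM and then at 422, 415, 427 and 407 CPM, with overlapping sets.

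Cells that lack oxygen stabilise the HIF1A and EPAS1 subunits, which pair with ARNT and bind a short DNA element, and so raise glucose transporters, glycolytic enzymes and mitochondrial and matrix regulators. EGLN enzymes, which use oxygen to mark the HIF subunits for destruction, are themselves among the induced genes. Metallothioneins are small cysteine-rich proteins that bind zinc and copper, and their promoters carry metal response elements read by the zinc-sensing factor MTF1. In naive-type stem cells glucose use and mitochondrial respiration are both active, and the balance between them differs with the culture state.

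The promoters of a few genes of these groups are shown first, because the hypoxia and metal responses are each known by a short core sequence. They are the 250 bases upstream of the RefSeq gene start in GRCh38.p14, matched by symbol, whereas the counts were made on hg19. Capitals mark each match on either strand. In the first 5 the match is to ACGTG, a form of the hypoxia response element core. In the last 3 it is to TGCNCNC, a loose form of the metal response element core, where N is any base. Other forms of either core were not searched. Matches may overlap, and a palindromic match counts once on each strand.
BNIP3, chr10:131981924-131982173, minus strand: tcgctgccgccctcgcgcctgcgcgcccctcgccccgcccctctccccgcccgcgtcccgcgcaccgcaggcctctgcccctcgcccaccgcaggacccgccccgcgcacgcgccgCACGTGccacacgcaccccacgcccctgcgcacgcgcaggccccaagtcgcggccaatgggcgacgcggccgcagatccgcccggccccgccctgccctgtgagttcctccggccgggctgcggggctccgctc
EGLN1, chr1:231422288-231422537, minus strand: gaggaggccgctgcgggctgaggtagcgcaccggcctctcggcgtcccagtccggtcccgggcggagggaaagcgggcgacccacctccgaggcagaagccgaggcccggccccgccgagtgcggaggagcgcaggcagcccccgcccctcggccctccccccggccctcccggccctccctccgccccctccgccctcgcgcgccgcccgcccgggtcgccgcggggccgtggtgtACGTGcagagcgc
P4HA1, chr10:73096867-73097116, minus strand: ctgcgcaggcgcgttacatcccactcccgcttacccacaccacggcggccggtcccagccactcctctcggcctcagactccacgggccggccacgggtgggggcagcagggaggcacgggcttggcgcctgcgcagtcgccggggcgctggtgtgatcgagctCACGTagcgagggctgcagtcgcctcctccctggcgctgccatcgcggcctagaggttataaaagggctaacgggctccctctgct
LDHA, chr11:18394313-18394562, plus strand: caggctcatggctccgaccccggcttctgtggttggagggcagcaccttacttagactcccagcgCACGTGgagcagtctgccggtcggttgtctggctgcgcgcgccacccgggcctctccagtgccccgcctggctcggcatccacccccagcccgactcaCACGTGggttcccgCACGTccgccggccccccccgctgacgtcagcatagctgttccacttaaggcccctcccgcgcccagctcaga
PFKFB3, chr10:6144671-6144920, plus strand: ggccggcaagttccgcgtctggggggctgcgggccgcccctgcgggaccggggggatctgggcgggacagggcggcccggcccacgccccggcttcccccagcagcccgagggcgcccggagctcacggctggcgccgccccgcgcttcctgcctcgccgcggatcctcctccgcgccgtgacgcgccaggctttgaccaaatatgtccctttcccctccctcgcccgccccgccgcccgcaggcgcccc
MT1H, chr16:56669564-56669813, plus strand: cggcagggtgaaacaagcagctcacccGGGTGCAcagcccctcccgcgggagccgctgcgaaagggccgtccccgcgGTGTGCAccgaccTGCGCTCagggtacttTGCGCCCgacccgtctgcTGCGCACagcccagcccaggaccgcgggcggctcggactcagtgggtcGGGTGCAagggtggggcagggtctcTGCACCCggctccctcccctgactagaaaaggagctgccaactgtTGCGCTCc
MT2A, chr16:56608334-56608583, plus strand: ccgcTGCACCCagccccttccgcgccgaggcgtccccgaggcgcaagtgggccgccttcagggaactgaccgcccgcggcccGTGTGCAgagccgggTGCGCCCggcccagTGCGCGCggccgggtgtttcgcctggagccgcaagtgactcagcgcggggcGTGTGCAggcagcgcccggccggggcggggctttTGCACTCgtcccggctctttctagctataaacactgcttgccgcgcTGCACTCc
MT1X, chr16:56682220-56682469, plus strand: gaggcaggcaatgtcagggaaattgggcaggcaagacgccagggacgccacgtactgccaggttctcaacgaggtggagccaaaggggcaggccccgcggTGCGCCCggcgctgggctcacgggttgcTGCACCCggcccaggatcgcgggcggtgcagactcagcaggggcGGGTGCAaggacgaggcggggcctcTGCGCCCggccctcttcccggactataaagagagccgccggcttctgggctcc
The core ACGTG was found in 12 of 26 promoters of hypoxia response genes that could be matched (46.2%) and in 8 of 19 of glycolysis genes (42.1%), against 18.7% of all 27305 promoters of that length and 22.7% of the 11067 tested genes with a promoter in the table. LDHA holds 5 matches to ACGTG, BNIP3 2 (1 palindrome) and EGLN1 and P4HA1 1 each. PFKFB3 holds no ACGTG in this window, which does not speak to other forms of the core. The pattern TGCNCNC was common to begin with, in 48.4% of all promoters and 56.6% of those of tested genes. It was found in 4 of 5 matched members of the metallothionein list. It was also in 16 of 19 glycolysis promoters (84.2%) and 17 of 26 hypoxia promoters (65.4%). The presence of this loose pattern therefore does not set the metallothionein list apart, and a stricter form was not searched. MT1H holds 8 matches, MT2A 7 and MT1X 4, and the number of matches per promoter was not set against other promoters. A match describes letters only.

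Between the sets, 4268 of 17228 genes were higher in numbers 3 and 4 (24.8%) and 4365 were lower (25.3%) at an adjusted p under 0.05 in edgeR's quasi-likelihood fit with the oligonucleotide group as a covariate. These shares are the background for every list below. Most differences were small, with a median fold of 1.23 among the higher genes and 1.20 among the lower. At least 2-fold changes numbered 318 higher and 181 lower. All 4 libraries of numbers 3 and 4 lay above all 4 of numbers 1 and 2 for 21.1% of genes, and below for 20.2%. The median absolute log2 change between the sets was 0.178, against 0.0562 between the SO-L1 and ASO-Ctr oligonucleotides in the same fit.

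Within a set fewer genes differed, in comparisons of 2 libraries with 2. Number 2 against number 1 gave 29 higher and 106 lower genes (0.784% of those tested), with a median absolute log2 change of 0.0752. Number 4 against number 3 gave 4 higher and 0 lower (0.0232%), with a median of 0.0598. ASO-Ctr 1 and 2 were an exception by another measure: the chi-square of raw counts, per gene, was 18.2 between them, against 18.5 for ASO-Ctr 1 and 3 and 30.9 for ASO-Ctr 2 and 4 across the sets, 1.87 for ASO-Ctr 3 and 4 and 2.72 for SO-L1 1 and 2. The difference between the sets did not differ detectably between the control oligonucleotides. By edgeR's interaction test 0 of 17228 genes differed between SO-L1 and ASO-Ctr (0%), 853 had an unadjusted p under 0.05, and limma-voom also called 0. Across the 13233 genes with a mean log2 CPM above 1, the set differences measured separately in ASO-Ctr and in SO-L1, which share no library, correlated with Pearson r = 0.888. This r is across genes, which are not independent replicates. Because the split was chosen on these same libraries, r too is a description and not a test.

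**Figure D1:**
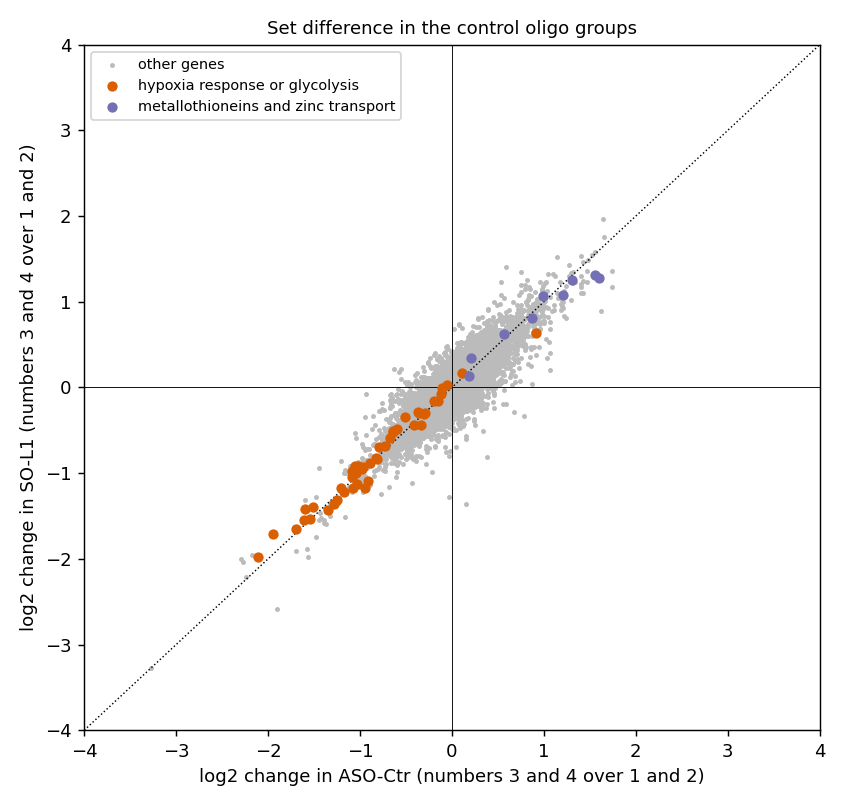
Log2 change of each gene, numbers 3 and 4 over 1 and 2, in ASO-Ctr (x axis) and SO-L1 (y axis), for genes with a mean log2 CPM above 1. Hypoxia response and glycolysis genes (orange) lie at the low end along the diagonal and metallothioneins (purple) at the high end.

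Of the gene lists examined, the hypoxia response had the lowest median. In numbers 3 and 4, 30 of 31 tested members were lower, against 25.3% of all genes, and the median log2 change was -1.06 against 0.00 for all genes tested. For all 30 of these the 2 sets did not overlap. The summed level of the list ran from 3612 to 3733 CPM in numbers 1 and 2 and from 1788 to 1926 CPM in numbers 3 and 4. This list was assembled with earlier results of these data known.

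The oxygen-sensing machinery itself moved by unequal amounts. HIF1A, the main oxygen-regulated subunit, was at 316, 319.7, 319 and 324 CPM in numbers 1 and 2 and 279.7, 296, 293 and 283 CPM in numbers 3 and 4, a log2 change of -0.16 ± 0.03 (SE). Its partner ARNT went from 71.4, 70.1, 72.2 and 73.2 to 58.6, 58.9, 59.0 and 58.8 CPM (-0.29 ± 0.03). Both were lower with no overlap, by less than the list median. EPAS1, the second HIF subunit, was the 1 member that was higher, from 2.41, 2.52, 2.29 and 1.92 to 4.70, 3.22, 4.13 and 3.73 CPM (log2 0.79 ± 0.13). EGLN1, the chief HIF prolyl hydroxylase and a HIF target, changed most of the sensors, from 51.5, 57.8, 55.5 and 54.7 to 12.3, 15.8, 15.9 and 19.2 CPM (-1.82 ± 0.08). EGLN3 showed -1.03 ± 0.06.

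Other members of the hypoxia list differed by amounts on either side of its median. PFKFB3, which makes the activator of phosphofructokinase, was at 134, 133, 134 and 139.6 CPM and then at 41.5, 43.7, 41.5 and 43.6 CPM, the gene with the smallest p in this direction (-1.67 ± 0.03 log2). Its relative PFKFB4 went from 73.4, 71.3, 66.2 and 71.7 to 22.4, 23.1, 25.3 and 26.7 CPM (-1.54 ± 0.05). Each set was tight and the gap between them was many times the spread. PDK1, which keeps pyruvate out of the mitochondrion, went from 169, 171, 167 and 165 to 81.6, 84.9, 89.9 and 89.9 CPM (-0.96 ± 0.03). BNIP3, a mitophagy receptor, went from 212, 232, 212 and 217 to 86.9, 96.5, 97.4 and 103 CPM (-1.19 ± 0.03), though reads of a near-identical pseudogene may be assigned with it. P4HA1, a collagen prolyl hydroxylase subunit, went from 148, 168, 158 and 163 to 69.6, 72.6, 76.2 and 75.1 CPM (-1.13 ± 0.03) and the vessel growth factor VEGFA from 81.4, 86.3, 65.9 and 81.9 to 32.3, 35.6, 32.8 and 37.2 CPM (-1.20 ± 0.05). The sets did not overlap for any of these 6 genes.

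Some genes outside the hypoxia list are also known to respond to hypoxia. They are named because they had the smallest p or the largest change among lower genes, which fixes their direction, so they add no support to the list. NDUFA4L2, which replaces a respiratory subunit in hypoxic cells, had the largest log2 change of the genes named by size, -3.27 ± 0.20, from 20.6, 26.5, 30.8 and 28.3 to 2.19, 2.61, 3.26 and 3.14 CPM. MIR210HG, the host transcript of the hypoxia-induced miR-210, went from 37.8, 38.3, 31.8 and 34.9 to 6.33, 9.21, 7.81 and 9.20 CPM (-2.14 ± 0.07). PLOD2, a collagen lysyl hydroxylase, went from 115, 126, 122 and 125 to 48.2, 56.8, 55.2 and 56.9 CPM (-1.18 ± 0.04). STC1, a secreted glycoprotein that stands in the primed and formative list, went from 46.0, 50.4, 50.2 and 51.0 to 9.15, 10.5, 11.4 and 11.7 CPM (-2.22 ± 0.06), 4.67-fold lower. DDIT4, an inhibitor of mTORC1 that stands in the ATF4 list and that hypoxia and ATF4 both raise, went from 161, 179, 179.6 and 188 to 34.8, 44.6, 41.2 and 50.9 CPM (-2.06 ± 0.08). BHLHE40, a HIF-induced repressor, went from 76.9, 83.1, 80.3 and 87.0 to 16.7, 21.2, 16.0 and 20.4 CPM (-2.15 ± 0.04).

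**Figure D2:**
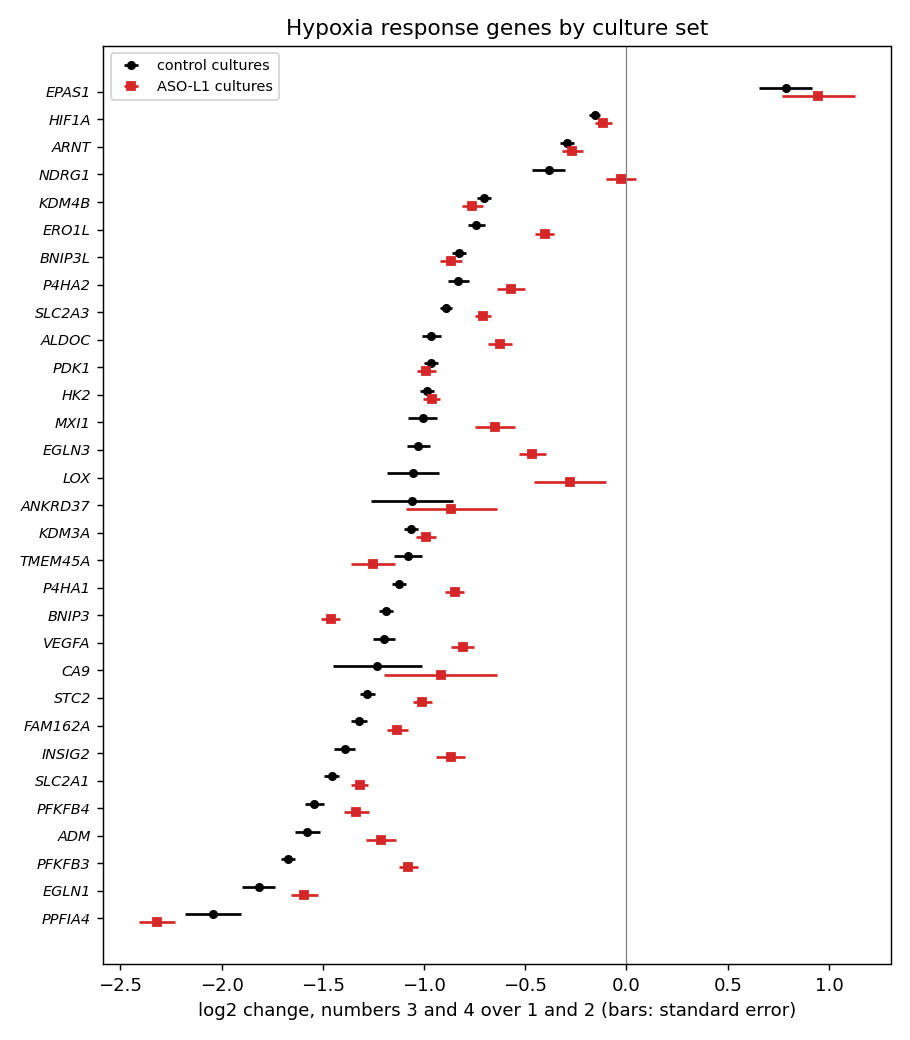
Log2 change with its standard error of the hypoxia response genes, numbers 3 and 4 over 1 and 2, in control cultures (black circles) and in ASO-L1 cultures (red squares). 30 of 31 members lie left of 0 in the control cultures and EPAS1 lies right of it.

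The glycolytic pathway was lower along its length. 18 of 21 tested members were lower (25.3% of all genes), 1 was higher, and the median log2 change was -0.54. The list sums to between 16531 and 17682 CPM in numbers 1 and 2 and between 11564 and 12442 CPM in numbers 3 and 4. Some members also stand in the hypoxia list. At the entry step, SLC2A1, the main glucose transporter, went from 466, 493, 497 and 494 to 159.7, 183, 179 and 193 CPM (-1.46 ± 0.03 log2), and HK2, which phosphorylates glucose, from 240.0, 227, 239 and 234 to 109, 120.5, 122 and 126 CPM (-0.98 ± 0.03). Both sets stood apart. Further down the pathway PGK1 went from 1259, 1366, 1370 and 1329 to 643, 703, 712 and 723 CPM (-0.94 ± 0.03), ENO1 showed -0.63 ± 0.03 and GAPDH only -0.31 ± 0.03. At the exit, LDHA, which turns pyruvate to lactate, went from 1491, 1595, 1601 and 1595 to 684, 788, 821 and 811 CPM (-1.02 ± 0.05) and the lactate exporter SLC16A3 from 115, 119.9, 119.9 and 122 to 33.7, 42.4, 44.2 and 49.0 CPM (-1.51 ± 0.09). LDHB, the subunit that favours lactate use, was the 1 higher member (0.14 ± 0.03). Nuclear-encoded respiratory chain genes gave 19 lower and 6 higher of 34, with a median log2 change of -0.08. The sets did not overlap for 6 of the 34 in the lower direction and 5 in the higher. Over all genes those shares were 20.2% and 21.1%. The counts of called genes moved with the libraries used: 7 were lower without number 3, 11 without number 2, 12 without ASO-Ctr 2 and 4 in ASO-Ctr alone. The higher count was 2 without number 1, 3 without number 3 or number 4, or without ASO-Ctr 1 or ASO-Ctr 4, and 0 in ASO-Ctr alone.

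Metallothioneins were higher. All 10 tested members of the metallothionein and zinc transport list were higher in numbers 3 and 4 (24.8% of all genes), with a median log2 change of 0.93, and the list sums to 308 to 329 CPM and then to 593 to 619.8 CPM. MT1H went from 27.3, 32.0, 29.3 and 32.1 to 83.5, 77.1, 84.0 and 83.0 CPM (1.43 ± 0.04), MT1E from 34.0, 37.1, 40.8 and 38.3 to 96.1, 88.2, 91.7 and 92.3 CPM (1.28 ± 0.04) and MT1G from 66.2, 67.5, 74.5 and 69.0 to 139.9, 142, 142 and 146 CPM (1.03 ± 0.03). Each set was narrow and the sets did not overlap. MT2A, the most widely expressed member, went from 33.6, 35.4, 37.3 and 41.3 to 82.5, 79.0, 82.2 and 84.5 CPM (1.14 ± 0.04). SLC30A1, a zinc exporter that MTF1 induces, went from 50.7, 46.4, 48.8 and 45.4 to 76.5, 69.9, 71.2 and 72.4 CPM (0.59 ± 0.04), whereas MT1X (0.28 ± 0.04) and MTF1 itself (0.16 ± 0.05) changed least. The MT1 genes are near-identical neighbours, and the counting may divide their reads among them.

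**Figure D3:**
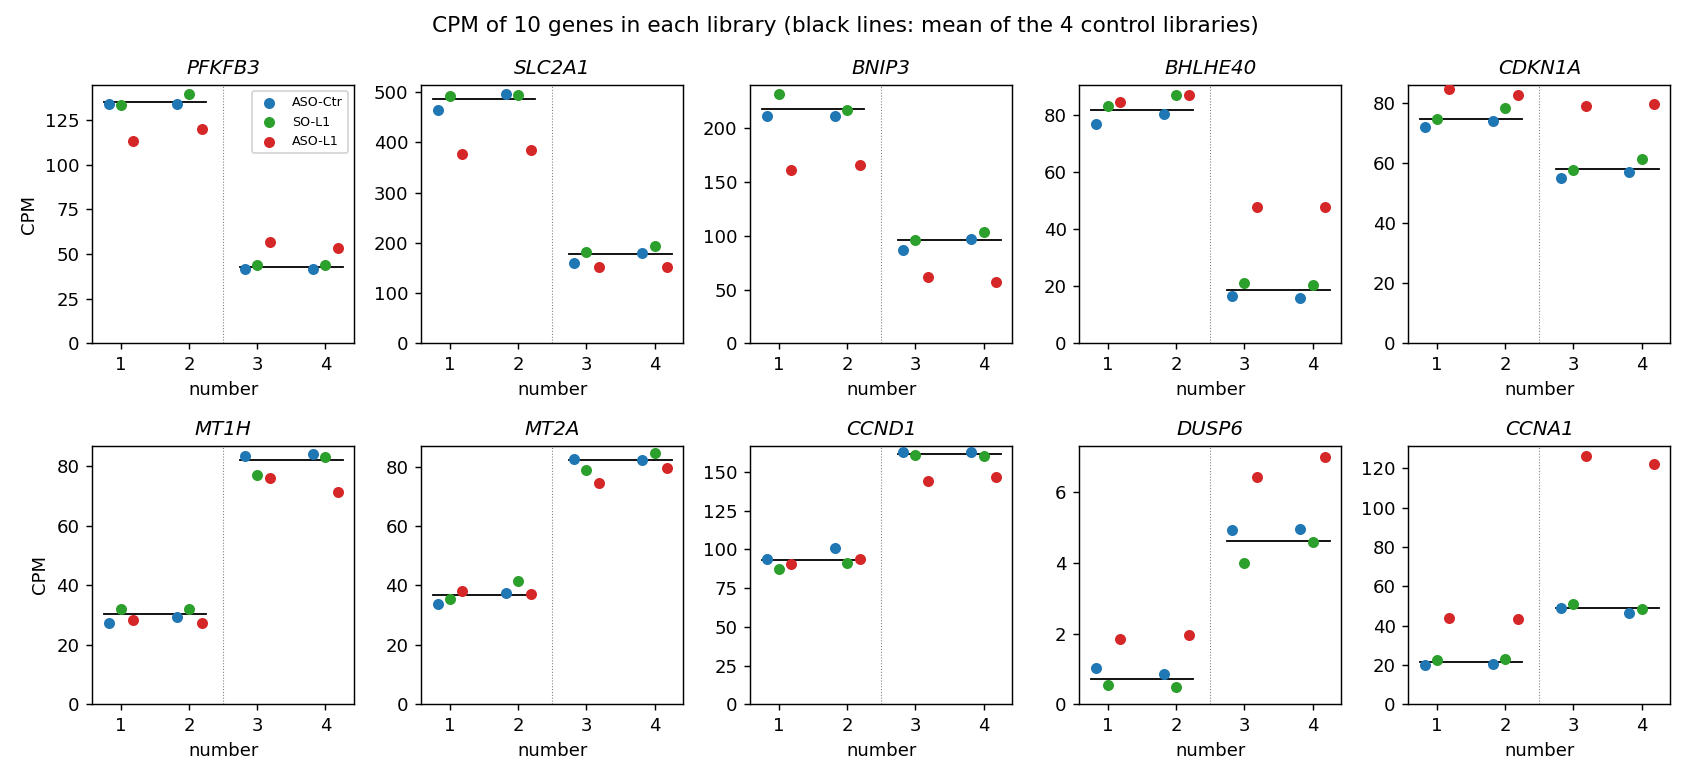
CPM of 10 genes in each library by its number, with ASO-Ctr in blue, SO-L1 in green and ASO-L1 in red, and black lines at the mean of the 4 control libraries of a set. The control libraries of numbers 3 and 4 lie below those of 1 and 2 for PFKFB3, SLC2A1, BNIP3, BHLHE40 and CDKN1A and above them for MT1H, MT2A, CCND1, DUSP6 and CCNA1.

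Other genes that were higher had different known roles. CCND1, a D cyclin that starts the cell cycle, went from 93.7, 87.6, 101 and 91.2 to 163, 161, 163 and 160.1 CPM (0.78 ± 0.03). ODC1, the entry enzyme of polyamine synthesis, went from 261, 290.3, 266 and 281 to 410.3, 452, 426 and 459 CPM (0.66 ± 0.03). CXCL5, a chemokine, went from 12.7, 13.4, 14.0 and 13.2 to 39.9, 33.7, 35.0 and 34.7 CPM (1.42 ± 0.06). ALPPL2, a placental-type alkaline phosphatase used as a naive marker, went from 37.3, 44.6, 41.5 and 42.4 to 119.8, 125, 102 and 119 CPM (1.48 ± 0.05), with possible sharing of reads with its near-identical relative ALPP. No library of one set reached the range of the other for these 4.

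Genes of S phase were higher together and p53 targets lower together. 25 of 34 S phase and replication genes were higher and 1 lower, with a median log2 change of 0.21. UHRF1, which recruits the maintenance DNA methyltransferase, went from 36.0, 32.5, 37.7 and 31.6 to 69.3, 68.8, 63.3 and 65.4 CPM (0.94 ± 0.04), and the helicase subunit MCM2 from 226, 210.0, 237 and 219.9 to 288, 293, 289.8 and 290.0 CPM (0.37 ± 0.03). Mitosis genes gave 11 higher (29.7%) and 9 lower (24.3%) of 37, shares near the 24.8% and 25.3% of all genes. Nucleolar and ribosome biogenesis genes were 37 higher and 2 lower of 63, with a small median of 0.14. Of cell cycle inhibitors and D cyclins 7 of 12 were lower and 3 higher, CCND1 among them. The largest difference was in CDK6, the kinase that D cyclins activate, which went from 118, 127, 124 and 132 to 67.4, 68.6, 73.5 and 75.7 CPM (-0.82 ± 0.04).

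Of p53 targets 22 of 31 were lower and 6 higher, with a median of -0.28. CDKN1A, the p21 inhibitor of cyclin-dependent kinases, went from 71.8, 74.7, 73.9 and 78.3 to 55.1, 57.7, 57.0 and 61.5 CPM (-0.38 ± 0.04). MDM2, the ligase that limits p53, went from 168, 191, 176 and 175 to 141, 136, 133 and 133 CPM (-0.40 ± 0.03) and CCNG1, another direct target, from 408, 427, 417 and 413 to 297, 293, 304 and 282 CPM (-0.51 ± 0.03). The 3 were lower without overlap. In the ATF4 and amino acid list 22 of 35 were lower and 4 higher, with a median of -0.18. DDIT4, STC2, VEGFA and VLDLR, its members with the largest differences, are also known hypoxia-responsive genes. Whether the rest of the list moved with hypoxia genes was not tested. ASNS, the asparagine synthetase, showed -0.49 ± 0.04 and ATF4 itself -0.03 ± 0.03, which was not called.

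**Figure D4:**
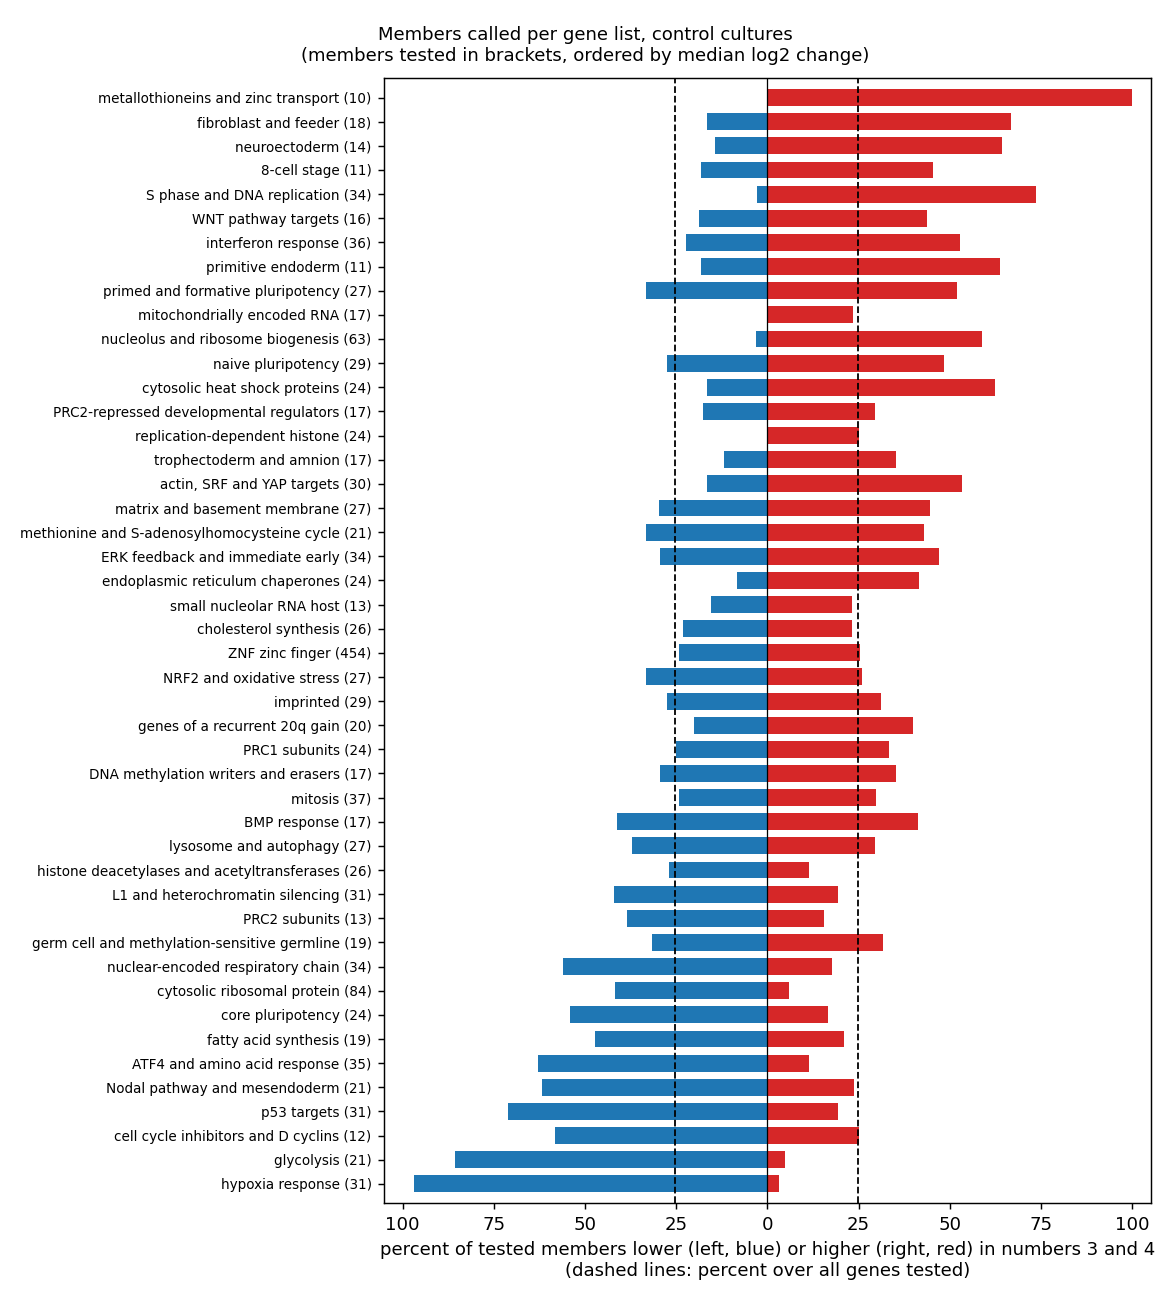
Percent of tested members called lower (blue, left) and higher (red, right) in numbers 3 and 4 of the control cultures, for each gene list with at least 10 tested members, ordered by median log2 change. Dashed lines mark 24.8% and 25.3%, the shares over all genes. Hypoxia response and glycolysis lie at the bottom and metallothioneins at the top.

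Signalling and cell identity genes differed in both directions. Nodal pathway and mesendoderm genes were 13 lower and 5 higher of 21. The co-receptor TDGF1 went from 906, 916, 916 and 889 to 689, 697, 719 and 683 CPM (-0.39 ± 0.03) and the transcription partner FOXH1 showed -0.45 ± 0.04. Some feedback inhibitors of ERK signalling were higher, with DUSP6, an ERK phosphatase, at 1.03, 0.544, 0.854 and 0.48 and then 4.93, 4.00, 4.96 and 4.58 CPM (2.65 ± 0.16) and SPRY4 at 17.2, 14.5, 17.5 and 12.3 and then 35.8, 27.7, 33.3 and 33.5 CPM (1.08 ± 0.06). The list they belong to was not 1-directional, at 16 higher and 10 lower of 34.

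Core pluripotency genes were more often lower, 13 (54.2%) against 4 higher (16.7%) of 24, where 25.3% and 24.8% of all genes were. The amounts were mostly small, with a median log2 change of -0.09 and a range from -0.64 to 0.23. POU5F1 showed -0.07 ± 0.03, with overlapping sets, and NANOG -0.16 ± 0.03. Naive markers gave 14 higher and 8 lower of 29, and primed and formative markers 14 and 9 of 27, so neither state's list moved 1 way. A further 5 naive markers had too few counts to test, and the cells are called naive-type by their medium only. DPPA3, a naive and germ cell gene, was at 59.3, 56.8, 61.0 and 55.7 and then 30.4, 27.7, 33.2 and 31.7 CPM (-0.93 ± 0.04), while DPPA5 was higher (0.53 ± 0.04). EZH2, the methyltransferase of Polycomb complex 2, went from 85.4, 83.3, 87.7 and 82.5 to 117, 115, 113 and 110.5 CPM (0.42 ± 0.03), whereas its partners SUZ12 (-0.01 ± 0.04) and EED (0.04 ± 0.05) were not called. The Polycomb complex 2 list went both ways, with 2 higher (15.4%) and 5 lower (38.5%) of 13 tested and a median log2 change of -0.04. Of the 8-cell stage list only 11 of 39 genes were expressed enough to test. Of these 11, 5 were higher and 2 lower, with a median log2 change of 0.21, and DPPA3 stands in this list too, among the lower. CCNA1 went from 19.7, 22.2, 20.7 and 23.2 to 48.9, 51.1, 46.2 and 48.6 CPM (1.17 ± 0.05), and ZSCAN4, a marker of that stage, was at 0.345, 0.0988, 0.307 and 0.218 and then 0.279, 0.339, 0.289 and 0.212 CPM, close to the limit of a count of 0.

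Markers of other cell types moved by different amounts. 12 of 18 fibroblast and feeder genes were higher and 3 lower, summing to 1267 to 1310 CPM and then to 1426 to 1489 CPM. COL1A1, a fibrillar collagen, went from 49.8, 44.9, 48.4 and 46.6 to 87.0, 84.0, 80.4 and 85.3 CPM (0.82 ± 0.04), but VIM was slightly lower (-0.17 ± 0.03). Neuroectoderm genes were 9 higher and 2 lower of 14, and trophectoderm and amnion genes 6 and 2 of 17. Their part in the other differences was not tested. Interferon response genes were 19 higher and 8 lower of 36, with HLA-B at 0.59 ± 0.04 and IFITM1 at -0.72 ± 0.08. HLA reads can be shared between the class I genes.

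The 4 ASO-L1 libraries did not enter the control fit. They were among the 12 libraries on whose components the split was seen, and the lists were chosen with their results known, so their set difference too is a description. In them 2987 genes were higher in numbers 3 and 4 (17.3%) and 3137 lower (18.2%). The chi-square of raw counts, per gene, was 10.7 between ASO-L1 3 and 4 and 2.02 between ASO-L1 1 and 2. Mitochondrially encoded RNA made up 8.81% of reads in ASO-L1 3 and 6.04% in ASO-L1 4, and its part was not tested. Of the 4268 genes higher in control cultures, 2354 (55.2%) were also higher in ASO-L1, 31 were lower and 1883 were not called. Of the 4365 lower genes, 2562 (58.7%) were lower, 12 were higher and 1791 were not called. Over genes with a mean log2 CPM above 1, the 2 set differences correlated with r = 0.838 across genes.

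The hypoxia and metal genes had the same directions in ASO-L1 cultures. 28 of 31 hypoxia genes were lower in ASO-L1 numbers 3 and 4, with a median of -0.87, and 18 of 21 glycolysis genes, with a median of -0.49. All 10 metallothionein list members were higher (median 0.99). SLC2A1 was at 376 and 386 CPM in ASO-L1 numbers 1 and 2 and 153 and 153 CPM in numbers 3 and 4, a log2 change of -1.32 ± 0.04 (SE). MT1H was at 28.2 and 27.3 and then 76.2 and 71.4 CPM (1.41 ± 0.06), and CCND1 at 90.3 and 93.8 and then 144 and 147 CPM (0.66 ± 0.04). For each gene the pair of numbers 3 and 4 lay wholly on one side of the pair of numbers 1 and 2.

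For 343 genes (1.99%) the set difference itself differed between ASO-L1 and control cultures by edgeR's interaction test over 12 libraries. BHLHE40 was at 84.8 and 87.0 CPM and then 47.8 and 47.9 CPM in ASO-L1 cultures, so its change was -0.85 ± 0.05 there against -2.15 in control cultures (difference 1.30 ± 0.06, adjusted p = 1.21e-21). PFKFB3 was also less strongly lower (-1.08 ± 0.05, difference 0.59 ± 0.06, adjusted p = 1.93e-10). BNIP3 was more strongly lower (-1.46 ± 0.05, difference -0.28 ± 0.06, adjusted p = 0.00665). The actin crosslinker FLNC was higher in control numbers 3 and 4, from 60.1, 65.5, 60.4 and 73.7 to 102, 119, 94.0 and 116 CPM (0.72 ± 0.04), but lower in ASO-L1, from 619 and 646 to 565 and 535 CPM (-0.20 ± 0.04, difference -0.93 ± 0.06, adjusted p = 2.1e-17). CDKN1A was not called in ASO-L1, at 84.4 and 82.7 and then 78.8 and 79.6 CPM (-0.08 ± 0.05, difference 0.29 ± 0.06, adjusted p = 0.000943). SLC2A1, MT1H and CCND1 were not called for such a difference, which was 0.13 ± 0.06, -0.03 ± 0.07 and -0.13 ± 0.05 (adjusted p = 0.249, 0.93 and 0.227).

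**Figure D5:**
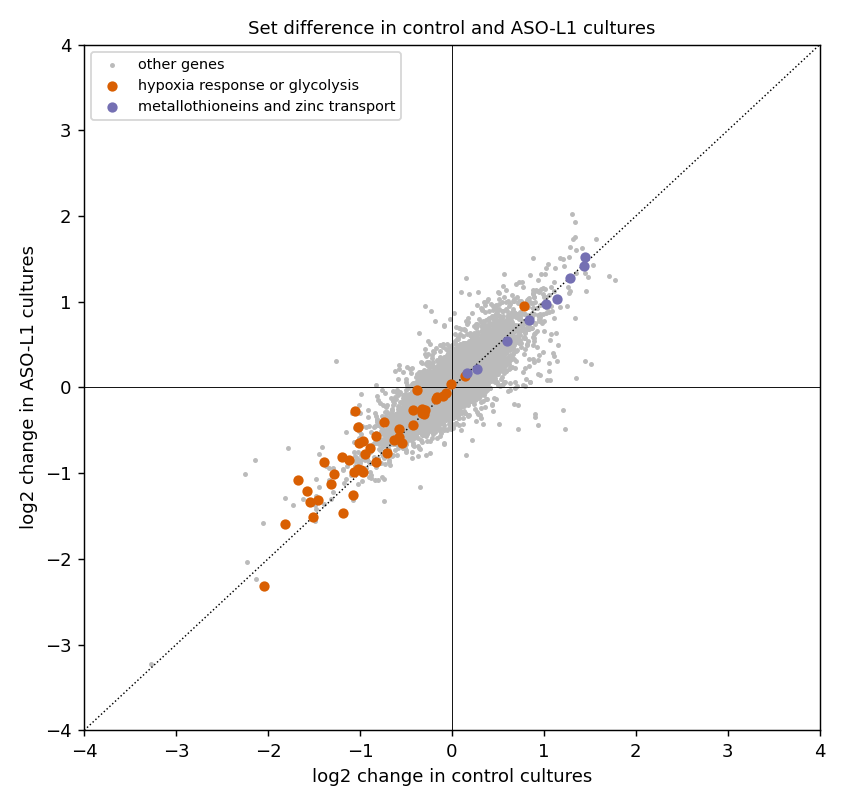
Log2 change of each gene, numbers 3 and 4 over 1 and 2, in control cultures (x axis) and ASO-L1 cultures (y axis), for genes with a mean log2 CPM above 1. Hypoxia response and glycolysis genes (orange) and metallothioneins (purple) keep their sides of 0 in both, apart from genes near 0.

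The authors' deposited log2 table, corrected for unstated batches according to its name, held less of this difference. In the control libraries its median absolute difference between the sets was 0.0357, against 0.175 in log2 CPM of the same 17228 genes. Inside the sets its median was 0.0400 for number 2 against 1 and 0.0375 for number 4 against 3, so 0.0357 was no larger than these. Over all 12 libraries its median absolute difference between the sets was 0.00221. In the authors' deposited table SLC2A1 differed by -0.04 log2 units between the sets, against -1.45 in log2 CPM, and MT1G by 0.02 against 1.04. In the authors' deposited table BHLHE40 differed by -0.43 against -2.14, PFKFB3 by -0.19 against -1.66 and CCNA1 by -0.11 against 1.18. The set difference of these genes also differed between ASO-L1 and control cultures. Where a table is level over all 12 libraries, such a gene keeps a control difference opposite to that in ASO-L1. These values therefore cannot be read as the part of the set difference that was left, nor the sign of CCNA1 as a reversal. Batches and method of that correction are not given in the sources used here.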

How the data were processed

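RNA-seq libraries were poly(A)-selected and stranded, per the labels' protocols. Per the submitters' processing notes, Trim Galore 0.4.0, TopHat2 2.0.13, featureCounts, Subread 1.5.0 and the hg19 build were used. The annotation is not given in the sources used here. The authors deposited raw counts per gene symbol, with an unexplained duplicate-removal tag in the file name, and a second table of log2 values, normalised and, by its file name, corrected for batches that are not stated. The deposited log2 values were used only for a side comparison.

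Genes that passed edgeR's filterByExpr (17228) were fitted with edgeR 4.0.16 (R 4.3.3), TMM scaling, a robust quasi-likelihood fit and the oligonucleotide group as a covariate. A gene was called at a Benjamini-Hochberg adjusted p under 0.05 over all genes. CPM are TMM-scaled. The ± values after a log2 change are standard errors. The pipeline was tested on simulated data. The same-numbered ASO-Ctr and SO-L1 libraries deviated together from their group means (Pearson r 0.717 to 0.759), mostly through the set difference: within sets r was 0.125 (number 2 minus 1) and 0.0444 (4 minus 3). The pairing comes from the label numbers.

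The 2 sets, the gene lists and the named genes were chosen with earlier results of these data known. Named genes are, in each direction, the 8 with the smallest p and the 8 with the largest change among called genes with a mean log2 CPM above 1 and non-overlapping sets, up to 4 called members of each list by p, and a fixed set of stem cell genes. Of the 66 genes printed, 19 fall outside that rule and were chosen after their values were seen. The interaction of ASO-L1 with the sets was added after seeing the data. Alternatives were DESeq2 1.42.0, limma-voom (limma 3.58.1), other scalings and filters, a replicate block, each oligonucleotide group alone, and leaving out libraries.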

Additional observations from a re-analysis of the deposited data

Results flagged for a closer look

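Among 142 groups of 4 control libraries examined (each set, for each printed gene and for 5 library measures), 7 held a library far from the other 3, and chance flags about 1 in 20. LDHA was lowest in ASO-Ctr 1 at 1491 CPM, SLC2A1 in ASO-Ctr 1 at 466 CPM and STC1 in ASO-Ctr 1 at 46.0 CPM. LDHB was highest in ASO-Ctr 2 at 945 CPM and PFKFB3 in SO-L1 2 at 139.6 CPM. MT1H was lowest in SO-L1 3 at 77.1 CPM and ALPP in ASO-Ctr 4 at 10.4 CPM. LDHB in ASO-Ctr 2 came close to the lowest library of the other set, ASO-Ctr 3 at 963 CPM, and the other 6 genes kept a wide gap between the sets.

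Of the 66 printed genes, 15 had a set difference in ASO-L1 cultures that differed from that in control cultures by edgeR's interaction test. The differences, ASO-L1 minus control on the log2 scale, were 1.30 for BHLHE40, 0.59 for PFKFB3, 0.56 for EGLN3, 0.47 for DPPA3, 0.33 for CCNA1, 0.29 for CDKN1A, 0.27 for P4HA1, 0.27 for STC2 and 0.24 for DPPA5. They were -0.28 for BNIP3, -0.24 for VIM, -0.34 for COL1A1, -0.47 for SPRY4, -0.92 for DUSP6 and -0.93 for FLNC.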

How the results depend on the processing

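The 4268 higher and 4365 lower genes of the control contrast stayed within 1.5 times under DESeq2, other scalings, other filters, limma-voom, sums per number and all 12 libraries. ASO-Ctr libraries alone gave 2618 higher and 2884 lower, and a test against a fold of 1.5 gave 212 and 180. Leaving out 1 library or 1 number gave 3262 to 4059 higher and 3434 to 4465 lower. Without ASO-Ctr 2, the library lowest in mitochondrial RNA, the counts were 4059 and 4216. With the number as a replicate block in limma-voom the counts were 4281 higher and 4378 lower, against 4254 and 4355 without the block. The block changed no call of the followed genes and moved no list count of this contrast by over 1.5 times. Its consensus correlation was -0.0165, so it could change little, and the agreement does not show that a shared number is without effect. The block was not run for the other comparisons. For ASO-L1 cultures DESeq2 gave 1489 higher and 1863 lower against 2987 and 3137, and leaving out 1 library, which left 1 set with a lone library assumed to vary like the others, gave 2068 to 2564 and 2204 to 2846. Number 4 against number 3 gave 7 genes in limma-voom against 4. Of 5373 gene and setting pairs none was reversed, 187 lost the call, 145 of them against a fold of 1.5, and 2 gained one. POU5F1 was lost in most settings (under RLE scaling -0.07, adjusted p = 0.0555 by edgeR), and of 31 hypoxia genes all but EPAS1 stayed lower in every setting except a fold of 1.5, where 26 were called. The cause of these changes was not tested. Low counts limit genes near 0.1 CPM, such as ZSCAN4.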

Other observations

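Fatty acid synthesis genes were more often lower than higher in numbers 3 and 4 of the control cultures, 9 against 4 of 19. FASN, the fatty acid synthase, was at 1097, 965, 1092 and 1039 CPM in numbers 1 and 2 and 879, 844, 833 and 839 CPM in numbers 3 and 4 (log2 -0.31 ± 0.03), and the desaturase SCD at 1434, 1469, 1573 and 1516 and then 1113, 1149, 1173 and 1179 CPM (-0.38 ± 0.03). Cytosolic heat shock genes were 15 higher and 4 lower of 24. Actin, SRF and YAP target genes gave 16 higher and 5 lower of 30 in control cultures and 10 higher and 12 lower in ASO-L1 cultures. Zinc finger genes of the ZNF family gave 115 higher and 110 lower of 454, shares near those of all genes.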
